A study of Mus musculus with 18 samples.

Results

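The suppressors of cytokine signalling (Socs1 to Socs7) and Cish are the genes of a family of 8 feedback inhibitors of cytokine receptors, and they are described here in mouse macrophages. The members were found by matching the gene IDs of the deposited count table to these 8 symbols in the GENCODE M21 annotation; 8 of the table's 56953 gene IDs matched, 1 per member. They are Socs1 (ENSMUSG00000038037.6, chromosome 16), Socs2 (ENSMUSG00000020027.19, chromosome 10), Socs3 (ENSMUSG00000053113.4, chromosome 11), Socs4 (ENSMUSG00000048379.10, chromosome 14), Socs5 (ENSMUSG00000037104.10, chromosome 17), Socs6 (ENSMUSG00000056153.16, chromosome 18), Socs7 (ENSMUSG00000038485.7, chromosome 11) and Cish (ENSMUSG00000032578.8, chromosome 9). All 8 passed the filter on low counts.

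Total RNA was sequenced from macrophages grown from mouse bone marrow, called BMDMs, for 7 days in medium with 30% supernatant of L929 cells, the source of the macrophage growth factor in such cultures. Cells came from C57BL/6J mice (B6) or from mice with a knock-in that replaces a threonine of the kinase RIPK1 with alanine (T169A). Each genotype was left unstimulated, given lipopolysaccharide (LPS), a bacterial ligand of Toll-like receptor 4, for 2 h, or given LPS with 5z7 for 2 h, which makes 6 groups of 3 libraries. The labels do not expand 5z7; it is a usual short form of 5Z-7-oxozeaenol, which blocks the kinase TAK1.

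The labels give neither the zygosity of T169A nor the animals, so it is not known if libraries within a group stem from different mice or cultures. The p-values therefore measure only the spread between these libraries, which may be technical. The sample titles carry replicate letters, A to C for B6 and D to F for T169A, each repeated over the treatments. What a letter stands for is not said. The count columns carry no letter, so all tests were unpaired. Counts per gene do not show a point mutation, so they do not check the genotype labels. Libraries held between 14.6 and 30.4 M counts (M for 1000000). All 7 macrophage markers were present in every library (Csf1r at 2620 to 3480 CPM, counts per 1000000 with TMM scaling, and Lyz2 at 24500 to 35400 CPM). Summed markers of neutrophils stayed between 5.31 and 18.2 CPM, those of fibroblasts between 0.914 and 5.56 CPM and those of dendritic cells between 0.163 and 3.13 CPM; Cd3e of T cells and Cpa3 of mast cells had no count in any library. In B6, the dendritic cell markers summed to 0.325 to 0.43 CPM unstimulated and 2.13 to 2.41 CPM with LPS, and the neutrophil markers to 5.31 to 6.08 and 9.17 to 11.9 CPM. Their part in the results was not tested.

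As background, a cytokine that binds its receptor activates JAK kinases, which phosphorylate the receptor and STAT transcription factors, and STATs then induce some of the SOCS genes. SOCS proteins carry an SH2 domain that binds phosphotyrosine on receptors or JAKs and a C-terminal SOCS box that recruits elongins and cullin 5, so that the bound protein is marked with ubiquitin. SOCS1 and SOCS3 also hold a short kinase inhibitory region that blocks JAKs directly. In macrophages, SOCS1 is known for limiting interferon signals, SOCS3 for limiting signals of IL-6 family receptors, and CISH for limiting STAT5-activating cytokines.

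Cish, Socs1 and Socs3 had far larger responses to LPS than the other members, and their start regions are shown for the STAT-type motifs they hold. RefSeq start-site windows (GRCm38.p6; 250 bases before and 50 after the transcript start, 300 in all) were at hand for 4 members, namely Socs1, Socs3, Socs4 and Cish. They were searched on both strands for TTCNNNGAA (the STAT or GAS motif), the interferon-response or ISRE motif (GAAA and again GAAA with 2 bases between), TGANTCA (the AP-1 motif) and the NF-kB decamer. Of all 32851 windows of that length, 8.3% held the GAS motif, 3.44% the ISRE motif, 7.81% the AP-1 motif and 8.46% the NF-kB motif. Sequences run 5′ to 3′ along the gene's strand, with motif matches in capitals.
Socs1 (chr16:10785537-10785786, minus strand, the 250 bases before the start): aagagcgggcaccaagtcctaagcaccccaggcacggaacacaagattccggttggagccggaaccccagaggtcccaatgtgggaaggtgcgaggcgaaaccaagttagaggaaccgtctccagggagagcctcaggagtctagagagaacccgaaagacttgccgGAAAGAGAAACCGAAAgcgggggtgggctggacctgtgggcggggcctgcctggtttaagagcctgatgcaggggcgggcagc
Socs3 (chr11:117969501-117969530, minus strand, 30 bases around the match): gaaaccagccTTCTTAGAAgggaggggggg
Cish (chr9:107296654-107296683, plus strand, 30 bases around the matches): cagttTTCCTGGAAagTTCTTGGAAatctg
The capitals of Socs1 hold 2 ISRE matches that overlap each other, GAAAGAGAAA from position -83 and GAAACCGAAA from -77, with the transcript's first base counted as 1. Socs3 had 1 GAS match, TTCTTAGAA from -154, and Cish 2, TTCCTGGAA from 1 and TTCTTGGAA from 12. In the GENCODE annotation of the same build, exons of Socs3 and Cish overlap the 250 bases before their RefSeq starts. The 2 Cish matches begin at or after the first base of the RefSeq transcript, so they do not lie before its start. It was not checked if the GENCODE exons cover the stretches shown. The Socs4 window held none of the 4 motifs. None of the 4 windows held an AP-1 or NF-kB match, Socs1 had no GAS match, and Socs3 and Cish had no ISRE match. A link between these motifs and the size of the LPS response was not tested. A match describes the letters and does not show that a factor binds there.

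LPS raised 5 of the 8 members in B6 and the same 5 in T169A: Cish, Socs1 and Socs3 by 104-fold to 231-fold, Socs7 by 5.15-fold and 4.32-fold, and Socs5 by 1.86-fold and 1.73-fold. Socs6 fell in both genotypes, and Socs2 and Socs4 did not pass the test in either. These calls use the quasi-likelihood F-test of edgeR, adjusted by Benjamini-Hochberg over 13068 genes, at 0.05. In B6, 63.1% of all tested genes were called (29.6% higher, 33.5% lower), and in T169A 61.9% (30.3% higher, 31.5% lower), so most genes were called at this time point and a call by itself does not set a member apart. The members' median log2 fold change was 1.63 in B6 and 1.45 in T169A, beside -0.07 and -0.03 over all tested genes. Scaling by library size alone, without TMM factors, moved the median of all genes to -0.66 and -0.61 and the calls to 1996 higher and 8484 lower in B6, from 3868 and 4372; in T169A they moved to 1934 and 8106, from 3965 and 4120. Directions below are therefore relative to the bulk of genes. Groups of libraries did not overlap for 6 of 8 members in B6 and 7 of 8 in T169A with LPS, beside 62.3% and 69.1% of all tested genes. In bulk RNA, a change in the share of cells that express a gene and a change in RNA per cell cannot be told apart.

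**Figure D1:**
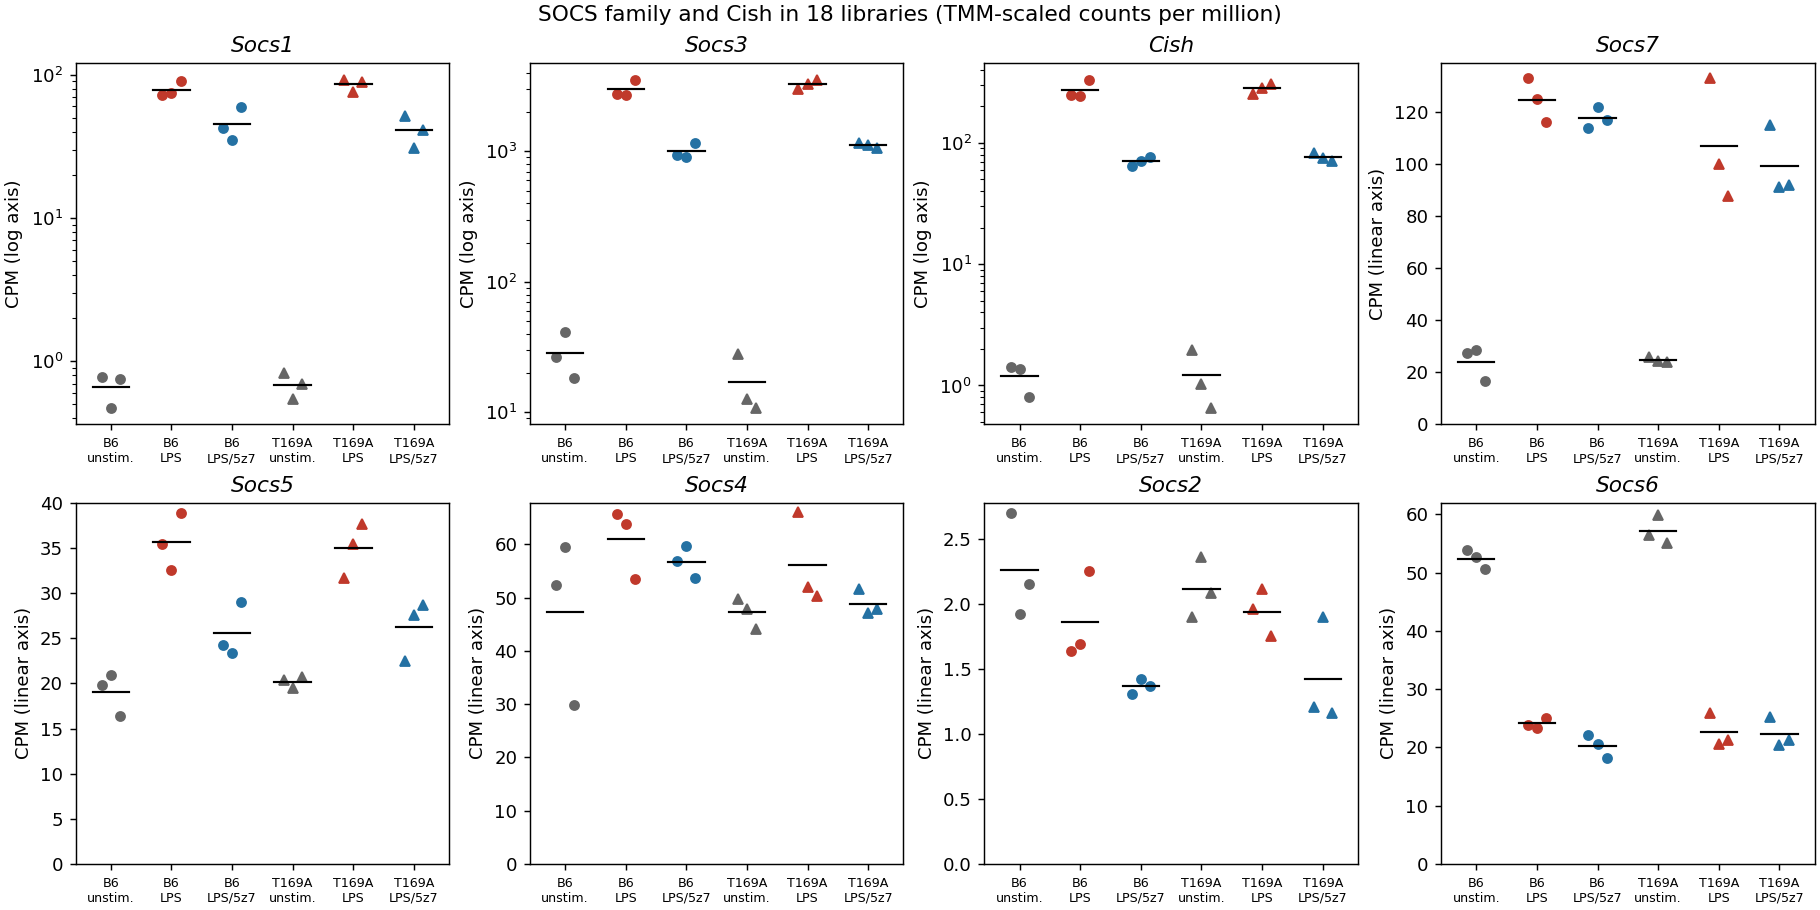
CPM (TMM-scaled) of each of the 8 members in all 18 libraries, 1 point per library (circles B6, triangles T169A), with the group mean as a bar; the axis is logarithmic for Socs1, Socs3 and Cish and linear from 0 for the others. Cish, Socs1 and Socs3 stand far above their unstimulated levels in all 12 stimulated libraries, and with LPS/5z7 these 3 sit below their LPS values in both genotypes.

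Cish, the inhibitor linked to STAT5, had the highest estimated fold change of the family with LPS. Its 95% intervals overlapped those of Socs1 and Socs3 in both genotypes, and differences between members were not tested. In B6 Cish stood at 1.43, 1.36 and 0.807 CPM unstimulated and at 248, 244 and 333 CPM with LPS. With LPS/5z7 it stood at 64.5, 70.9 and 76.2 CPM. In T169A it stood at 1.98, 1.02 and 0.653, at 253, 286 and 305, and at 83.0, 75.1 and 71.5 CPM in the same order. The treatment groups were fully separate within each genotype, while the genotypes overlapped in each treatment. The unstimulated values rest on 15 to 48 counts per library. LPS raised Cish by 7.79 ± 0.26 (log2, SE; 222-fold) in B6 and by 7.85 ± 0.26 (231-fold) in T169A, with edgeR adjusted p of 1.34e-13 in both. The strand setting of the authors' counting is not given in the sources used here; 2 antisense genes share exon sequence with Cish, and they held few counts, 0 to 4 per library for Gm17040 and 0 to 1 for Gm17041.

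Socs3, the inhibitor of IL-6 family signals, was the most abundant member after stimulation. In B6 it stood at 26.5, 41.2 and 18.3 CPM unstimulated, at 2750, 2710 and 3500 CPM with LPS, and at 933, 909 and 1160 CPM with LPS/5z7. The T169A values were 28, 12.7 and 10.8 CPM, then 3000, 3310 and 3560 CPM, then 1160, 1120 and 1060 CPM. Treatments did not overlap in either genotype. Unstimulated, 2 of the 3 T169A libraries lay below all B6 ones and the other lay within the B6 range. The LPS effect was 6.69 ± 0.36 (104-fold, edgeR adjusted p 3.95e-11) in B6 and 7.58 ± 0.37 (192-fold, 1.35e-11) in T169A.

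Socs1, which restrains interferon receptors and JAKs, rose from a lower base. In B6 it stood at 0.776, 0.473 and 0.753 CPM unstimulated, at 72.3, 74.4 and 89.6 CPM with LPS, and at 42.4, 34.8 and 59.1 CPM with LPS/5z7. In T169A the values were 0.824, 0.550 and 0.693, then 92.5, 75.3 and 89.1, then 51.4, 30.7 and 41.0 CPM. No library of one treatment reached another treatment's range within a genotype, and the spread with LPS/5z7 was wide. The unstimulated level rests on 14 to 20 counts per library. LPS raised Socs1 by 6.92 ± 0.28 (121-fold, edgeR adjusted p 9.66e-13) in B6 and by 6.95 ± 0.27 (124-fold, 7.98e-13) in T169A.

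Socs7, which is linked to insulin receptor signalling and binds the adaptor NCK, stood at 27.3, 28.4 and 16.6 CPM unstimulated, at 133, 125 and 116 CPM with LPS, and at 114, 122 and 117 CPM with LPS/5z7 in B6. The T169A values were 26.0, 24.3 and 24.0, then 133, 100 and 87.7, then 115, 91.3 and 92.1 CPM. All stimulated libraries lay above all unstimulated ones, and the LPS and LPS/5z7 groups overlapped in both genotypes. The LPS effect on Socs7 was 2.36 ± 0.18 (edgeR adjusted p 2.9e-09) in B6 and 2.11 ± 0.17 (1.16e-08) in T169A.

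Socs5, which is linked to signalling of the EGF receptor, stood at 19.8, 20.9 and 16.4 CPM unstimulated, at 35.4, 32.6 and 38.9 CPM with LPS, and at 24.3, 23.4 and 29.0 CPM with LPS/5z7 in B6. The T169A values were 20.4, 19.5 and 20.7, then 31.7, 35.5 and 37.7, then 22.5, 27.6 and 28.7 CPM. The 3 treatments kept separate ranges in each genotype. LPS raised Socs5 by 0.90 ± 0.12 (edgeR adjusted p 3.68e-06) in B6 and by 0.79 ± 0.12 (1.54e-05) in T169A; scaled by library size alone, the T169A change was 0.21 with adjusted p 0.123, which ended that call, and the B6 change was 0.31 with adjusted p 0.0292.

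Socs6, which binds the receptor KIT and insulin receptor substrates, was the member that moved the other way. In B6 it stood at 53.9, 52.7 and 50.6 CPM unstimulated, at 23.9, 23.4 and 25.0 CPM with LPS, and at 22.2, 20.5 and 18.2 CPM with LPS/5z7. In T169A it stood at 56.5, 59.9 and 55.1, then 25.9, 20.6 and 21.3, then 25.2, 20.4 and 21.2 CPM. Every unstimulated library was above every stimulated one, and the tight B6 values of LPS and LPS/5z7 did not overlap, while those of T169A did. Socs6 fell by 1.12 ± 0.10 on the log2 scale with LPS in B6 (edgeR adjusted p 3.53e-08) and by 1.33 ± 0.10 in T169A (4e-09).

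Socs4 and Socs2 did not pass the test with LPS. Socs4, the closest relative of Socs5, stood at 52.3, 59.5 and 29.8 CPM unstimulated, at 65.7, 63.8 and 53.4 CPM with LPS, and at 56.9, 59.7 and 53.6 CPM with LPS/5z7 in B6. In T169A it stood at 49.8, 47.9 and 44.1, then 66.0, 51.9 and 50.2, then 51.6, 47.1 and 47.8 CPM. The unstimulated B6 library at 29.8 CPM was the lowest of all 18, and the B6 groups overlapped. The LPS difference was 0.37 ± 0.18 in B6 (95% interval 0 to 0.74, edgeR adjusted p 0.0789) and 0.25 ± 0.18 in T169A (adjusted p 0.233), where the groups did not overlap. The B6 value of Socs4 turned on single libraries: it was 0.57 (adjusted p 0.0104) without the unstimulated library at 59.5 CPM and 0.13 (0.324) without the one at 29.8 CPM; with library size alone it was -0.22 (0.229) in B6 and -0.34 (0.0785) in T169A.

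Socs2, best known for limiting growth hormone signalling, was low throughout. In B6 it stood at 2.70, 1.92 and 2.15 CPM unstimulated, at 1.64, 1.69 and 2.25 CPM with LPS, and at 1.31, 1.42 and 1.37 CPM with LPS/5z7. The T169A values were 1.90, 2.36 and 2.08, then 1.96, 2.11 and 1.75, then 1.21, 1.90 and 1.16 CPM. Unstimulated and LPS libraries overlapped in both genotypes, and all 3 B6 libraries with LPS/5z7 lay below all other B6 libraries. The LPS difference in Socs2 was -0.30 ± 0.20 in B6 (95% interval -0.73 to 0.13, edgeR adjusted p 0.208) and -0.12 ± 0.20 in T169A (0.622). With library size alone it was -0.89 (adjusted p 0.000877) and -0.71 (0.00563), so that this scaling called Socs2 lower in both genotypes.

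**Figure D2:**
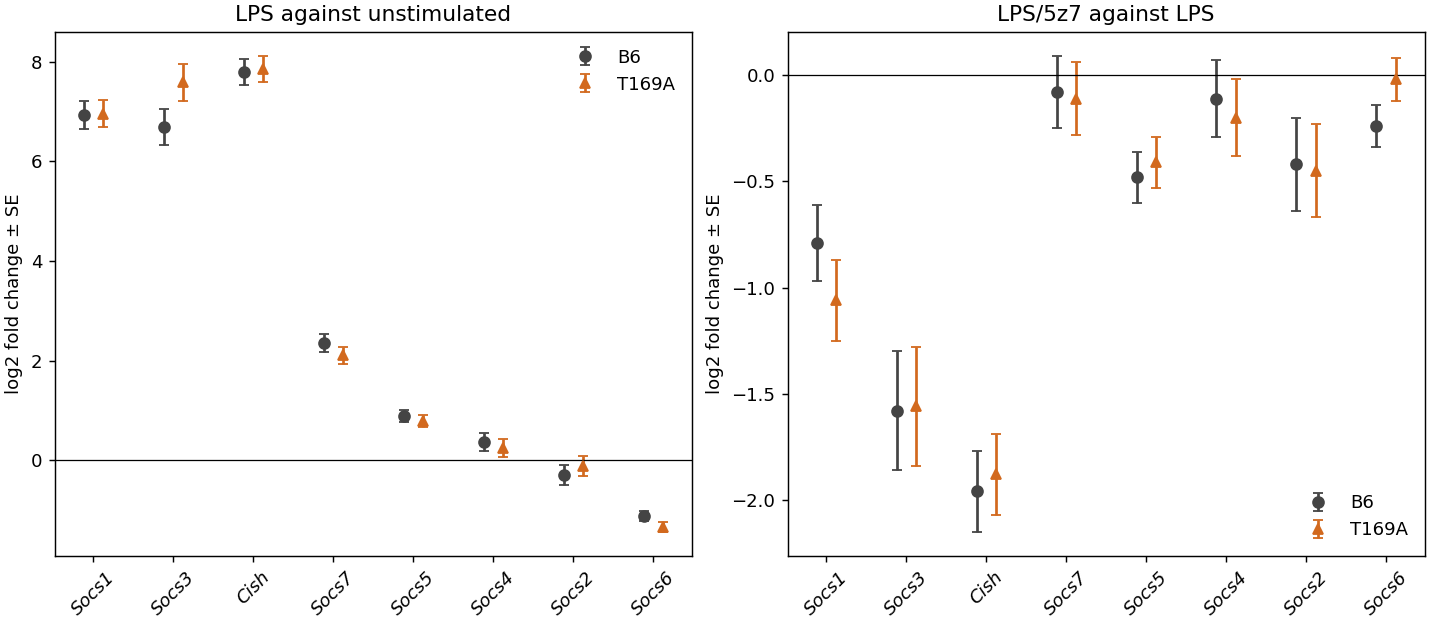
Log2 fold change with its SE (edgeR, 3 libraries per group) of each member for LPS against unstimulated (left) and LPS/5z7 against LPS (right), B6 as circles and T169A as triangles. On the left Cish, Socs1 and Socs3 lie between 6.69 and 7.85 and Socs6 lies below 0; on the right Cish is lowest at -1.96 and -1.88, and Socs7 and Socs4 lie near 0.

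The second question of the design is what 5z7 did to the LPS response. With 5z7 added, Cish, Socs3, Socs1 and Socs5 were lower than with LPS alone in both genotypes, and no member was higher. The 4 of 8 called compare with 13.8% of all tested genes called in B6 (7.03% higher, 6.79% lower) and 13% in T169A (6.5% higher, 6.53% lower). The LPS/5z7 and LPS libraries did not overlap for 6 members in B6 and 4 in T169A, beside 35.5% and 29.6% of all tested genes. The members' median difference was -0.45 in B6 and -0.43 in T169A, against 0.02 over all tested genes in both. Leaving out any 1 library of the compared groups lowered the all-gene count. It fell from 1806 to between 1159 and 1275 in B6 and from 1703 to between 1009 and 1634 in T169A. Under library size alone the all-gene calls became 2339 higher and 516 lower in B6, from 919 and 887, and 2177 and 530 in T169A, from 850 and 853.

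Cish had the largest estimated loss, with a 95% interval that overlapped that of Socs3 in both genotypes. The mean of Cish with LPS/5z7 was 25.7% of the LPS level in B6 (-1.96 ± 0.19, edgeR adjusted p 1.66e-06). In T169A it was 27.2% (-1.88 ± 0.19, 2.61e-06). Socs3 was at 33.5% in B6 (-1.58 ± 0.28, edgeR adjusted p 0.0012) and at 33.9% in T169A (-1.56 ± 0.28, 0.00132). Socs1 was at 57.7% in B6 (-0.79 ± 0.18, edgeR adjusted p 0.00801) and at 48% in T169A (-1.06 ± 0.19, 0.000918). These 3 are the members with the largest LPS response, and each kept its call when any 1 library was left out.

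Socs5 was at 71.8% of its LPS level in B6 (-0.48 ± 0.12, edgeR adjusted p 0.0113) and at 75.1% in T169A (-0.41 ± 0.12, 0.0266). That call is the least firm of the 4. With library size alone it was -0.31 (0.0769) and -0.25 (0.156), it was lost in B6 without the LPS/5z7 library at 24.3 CPM (-0.44, 0.0536), and in T169A it was lost without either of the LPS libraries at 35.5 and 37.7 CPM (0.0729 and 0.0876) or the LPS/5z7 libraries at 22.5 and 27.6 CPM (0.105 and 0.0528).

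Socs7 contrasts with the 3 strong responders. It differed between LPS/5z7 and LPS by -0.08 ± 0.17 in B6 (95% interval -0.43 to 0.27) and by -0.11 ± 0.17 in T169A (-0.46 to 0.24), so neither interval reaches the mean loss of Cish, Socs3 or Socs1 in that genotype. For Socs4 the differences were -0.11 ± 0.18 (-0.48 to 0.27) and -0.20 ± 0.18 (-0.57 to 0.17), and for Socs2 -0.42 ± 0.22 (-0.88 to 0.05) and -0.45 ± 0.22 (-0.91 to 0.01). Socs6, the member that fell with LPS, was -0.24 ± 0.10 in B6 (-0.46 to -0.02, edgeR adjusted p 0.146) and -0.02 ± 0.10 in T169A (-0.24 to 0.19, 0.937).

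Set against unstimulated cells, Socs1, Cish and Socs3 were still far higher with LPS/5z7. Socs1 was 70-fold higher in B6 and 59.3-fold higher in T169A, Cish 56.9-fold and 62.8-fold, and Socs3 34.7-fold and 65.1-fold. Socs7 was higher by 2.28 ± 0.18 and 2.00 ± 0.17 and Socs5 by 0.42 ± 0.12 and 0.38 ± 0.12 (log2), and Socs6 fell by 1.37 ± 0.10 and 1.36 ± 0.10. Socs2 passed the test here and not with LPS alone, at -0.72 ± 0.21 in B6 (edgeR adjusted p 0.00814) and -0.57 ± 0.21 in T169A (0.0279), while the difference between LPS/5z7 and LPS in Socs2 did not pass. In all, 5 members rose, 2 fell and Socs4 did not pass in each genotype, beside 55.5% of tested genes called in B6 (27.6% higher, 27.9% lower) and 55.6% in T169A (28.1% higher, 27.5% lower). The groups did not overlap for 7 members in each genotype, beside 58.8% and 69.2% of all tested genes. The comparisons share libraries, the LPS group with the 5z7 comparison and the unstimulated group with this one, so they are not independent of each other. For Socs4 in B6 the difference was 0.26 ± 0.18, and 0.46 (adjusted p 0.0354) without the unstimulated library at 59.5 CPM. The Socs5 call was lost without the B6 library at 29.0 CPM (0.30, 0.0532) and without the T169A library at 28.7 CPM (0.29, 0.0693). The T169A call of Socs2 was lost with no filter on low counts (-0.58, 0.0871), with DESeq2 (-0.58, 0.0582), and without the unstimulated library at 2.36 CPM (0.104) or the LPS/5z7 libraries at 1.21 or 1.16 CPM (0.116 and 0.0931).

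Levels of different genes were compared per length, as CPM per kilobase of exon (CPM per kb). In unstimulated B6 cells the order on this scale was Socs3 at 9.92, Socs4 at 6.86, Socs6 at 4.62, Socs7 at 3.31, Socs5 at 2.97, Socs2 at 0.237, Socs1 at 0.229 and Cish at 0.187 CPM per kb. Socs3 overlapped Socs4, Socs4 overlapped Socs6, Socs7 overlapped Socs5, and the last 3 overlapped in turn, so only the steps from Socs6 to Socs7 and from Socs5 to Socs2 were wider than the spread. LPS reordered the family: Socs3 at 1030, Cish at 42.8, Socs1 at 27.1, Socs7 at 17.2, Socs4 at 8.86, Socs5 at 5.55, Socs6 at 2.12 and Socs2 at 0.195 CPM per kb, with no overlap between neighbours. Cish thus went from the last place to the second, and Socs6 from the third to the seventh.

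With LPS/5z7 in B6, Socs3 led at 347 CPM per kb, and Socs7 (16.2), Socs1 (15.6) and Cish (11) followed, with Socs7 and Socs1 overlapping. The T169A orders with LPS were the same gene by gene, from Socs3 at 1140 and Cish at 43.8 CPM per kb down to Socs2 at 0.203. With LPS/5z7 in T169A, Socs1 (14.1), Socs7 (13.7) and Cish (11.9) overlapped behind Socs3 (386). In unstimulated T169A cells, Socs4 (6.87), Socs3 (5.94) and Socs6 (5.04) overlapped at the head of the order. Exon length is the union over annotated transcripts, so a gene with long rarely used exons is placed too low on this scale.

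The summed level of the 8 members was 28.3 ± 7.38 CPM per kb (SD, n = 3) in unstimulated B6 cells, 1140 ± 165 with LPS and 403 ± 53.6 with LPS/5z7. In T169A it was 25 ± 3.86, 1240 ± 100 and 439 ± 22.6 CPM per kb. Most of that sum was Socs3 after stimulation: its share was 30.8 to 40.4% in unstimulated B6 libraries, 90.6 to 91.3% with LPS and 85.3 to 86.6% with LPS/5z7. In T169A the share of Socs3 was 16.9 to 32.9%, 90.7 to 92.1% and 87.1 to 89%. Stimulated macrophages of both genotypes therefore held a family transcript pool made mainly of 1 member.

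**Figure D3:**
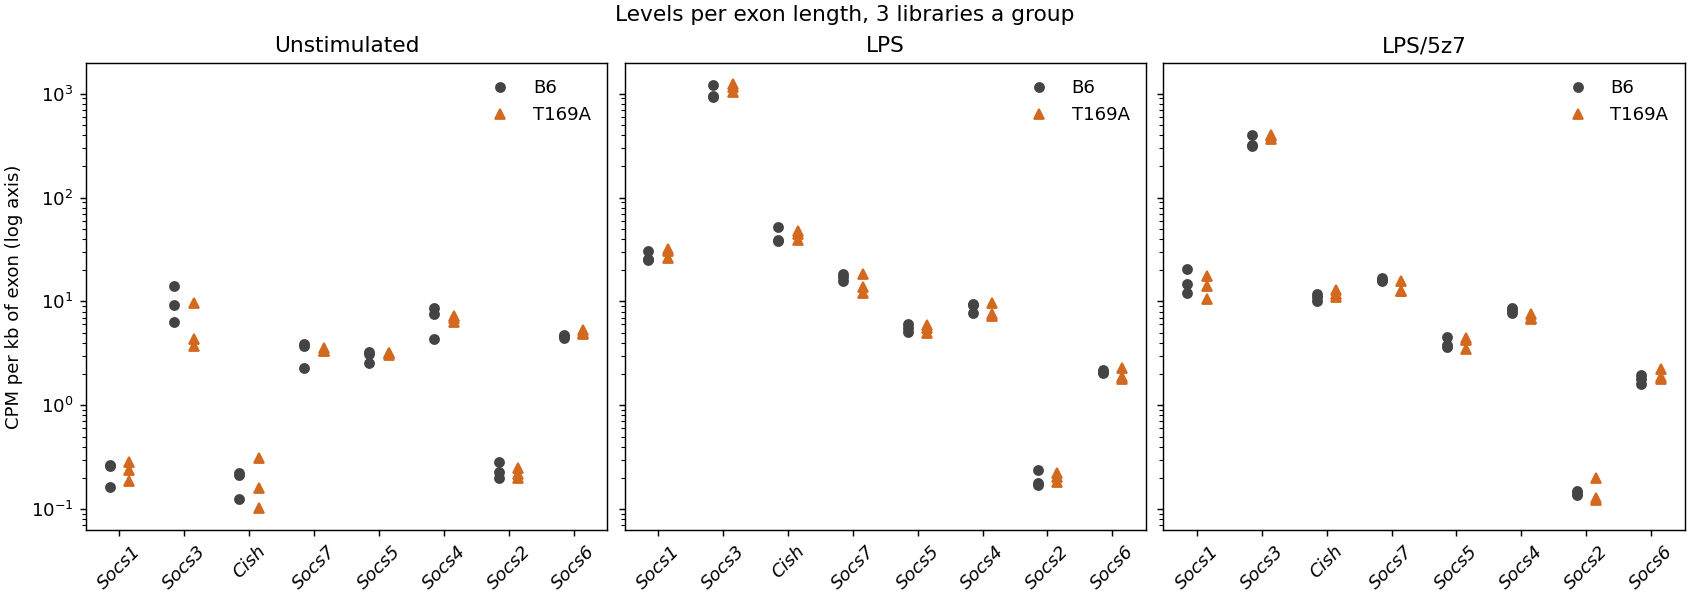
CPM per kilobase of exon (log axis) of each member, 1 point per library (circles B6, triangles T169A), with 1 panel each for unstimulated, LPS and LPS/5z7. Socs3 stands above all other members in the 4 stimulated groups, and Cish and Socs1 climb from the bottom of the unstimulated order.

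The last question is whether the RIPK1 mutation altered these genes. In T169A against B6, none of the 8 members was called unstimulated, with LPS or with LPS/5z7 by edgeR, and DESeq2 called none either; 0.214%, 0.222% and 0.161% of all tested genes (28, 29 and 21) were called by edgeR. These all-gene counts depended on the fit: they were 7, 13 and 223 when only the groups compared were fitted, 40, 38 and 39 with no filter on low counts, and 61, 51 and 44 with DESeq2. Leaving out 1 library moved the unstimulated count to 46 (without library 7) or 45 (library 10) and the LPS count to 18, 16, 17 or 19 (without library 2, 5, 14 or 17, by the columns' running numbers). At an unadjusted p under 0.05 there was 1 member unstimulated, Socs3, and 0 in the other 2 conditions, beside 5.31%, 5.58% and 5.86% of all tested genes at that level. With LPS the member differences reached at most 0.22 in size (log2), and with LPS/5z7 at most 0.24. Socs6 unstimulated (0.13 ± 0.10) and Socs4 with LPS/5z7 (-0.22 ± 0.18) had genotype groups that did not overlap, as did 8.48% and 23.2% of all tested genes in those conditions; with LPS no member did, beside 10.5%.

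Socs3 in unstimulated cells was lower in T169A by the means, 17.2 ± 9.42 against 28.7 ± 11.6 CPM (SD, n = 3). The difference was -0.75 ± 0.29 (95% interval -1.37 to -0.13, edgeR p 0.0208, adjusted p 0.747), and the groups overlapped. The value turned on single libraries. Without the T169A library at 28 CPM it was -1.30 (edgeR adjusted p 0.0332). Without the T169A library at 12.7 or 10.8 CPM it was -0.57 or -0.50. Without 1 of the B6 libraries it was -0.81, -0.39 or -0.99, and none of these other fits passed. Among unstimulated T169A libraries, the one at 28 CPM of Socs3 was also the highest for 3 LPS-responsive genes. They were picked from the genes that followed Socs3 or Cish most closely over these same libraries, so they are no separate evidence. These were Nfkbia (277 against 180 and 174 CPM), Tnf (118 against 62.9 and 68.7 CPM) and Pim1 (79.7 against 47.9 and 45.6 CPM). In unstimulated B6 the library at 41.2 CPM of Socs3 was likewise the highest for Nfkbia (305 against 252 and 245 CPM), Tnf (135 against 103 and 80.9 CPM) and Pim1 (78.8 against 70.6 and 44.8 CPM). Not every gene picked in this way did the same. Il15ra, which followed Socs1, was lowest in both of these libraries. It stood at 2.87 against 3.47 and 4.46 CPM in B6, and at 3.46 against 3.81 and 3.47 CPM in T169A. The part of such variation between libraries in the Socs3 difference was not tested.

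The LPS effect itself was compared between genotypes with an interaction term, and no member was called by edgeR or DESeq2 (0% of all tested genes were called by edgeR). The difference for Socs3 was 0.89 ± 0.40 (95% interval 0.04 to 1.74, p 0.0421, edgeR adjusted p 0.916), the 1 member at an unadjusted p under 0.05, beside 3.22% of all tested genes, and it contains the same unstimulated libraries. For the 5z7 effect no member was called and 0 had an unadjusted p under 0.05, beside 1.16% of all tested genes, again with 0% called.

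The rest of the pathway was read from lists chosen for the routes these inhibitors act on. Their counts stand beside the shares of all tested genes given above: with LPS 29.6% higher and 33.5% lower in B6 and 30.3% and 31.5% in T169A, and with 5z7 7.03% higher and 6.79% lower in B6 and 6.5% and 6.53% in T169A. All 4 JAK kinases rose with LPS in both genotypes. Jak2, the kinase of growth hormone and GM-CSF type receptors, went from 51.4 to 988 CPM in B6 (4.26 ± 0.16, edgeR adjusted p 3.29e-13) and stood at 742 CPM with LPS/5z7 (-0.41 ± 0.14, 0.0537); the T169A difference was -0.43 ± 0.14 and passed (0.0451). Jak1 rose by 0.89 ± 0.13, and Tyk2, the JAK of interferon and IL-12 receptors, rose by 0.68 ± 0.10 in B6; with 5z7 it was higher again in B6 (0.35 ± 0.10, edgeR adjusted p 0.0297) and did not pass in T169A (0.31 ± 0.10, 0.0567). Of the 7 STAT factors, 6 rose in B6 and 5 in T169A. Stat5a went from 26.3 to 446 CPM in B6 (4.08 ± 0.09) and Stat2 from 68.1 to 375 CPM (2.46 ± 0.09), while Stat6 was level at 288 and 293 CPM. With 5z7, Stat5a (-0.29 ± 0.08) and Stat3 (-0.40 ± 0.12) were lower in both genotypes.

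Of 27 cytokine ligands listed, 16 passed the filter on low counts. A gene silent in resting cells passes it only through a stimulated group. So the 15 of 16 called higher with LPS in each genotype, and their median, say nothing of the list. A gene that passes through its LPS level alone can in turn hardly differ with 5z7 except by being lower. The 10 of 16 called lower with 5z7 therefore say nothing of the list either. Il27, a cytokine that signals through Il6st, went from 0.776 to 313 CPM with LPS in B6 and stood at 223 CPM with LPS/5z7 (-0.49 ± 0.16, edgeR adjusted p 0.0586). Clcf1 fell from 115 to 38.7 CPM with 5z7 (-1.57 ± 0.15), and Il10 from 137 to 8.54 CPM (-4.00 ± 0.20). Osm, an IL-6 family ligand, was at 9.89 CPM unstimulated and 11.7 CPM with LPS and fell to 0.885 CPM with LPS/5z7 (-3.69 ± 0.17). Among 26 tested receptors of 32 listed, 12 rose and 6 fell in B6 and 13 and 7 in T169A (all tested genes: 29.6% and 33.5%, 30.3% and 31.5%), with Il10ra (1.10 ± 0.08), Ifnar2 (1.08 ± 0.08), Il2rg (1.17 ± 0.11) and Il4ra (1.87 ± 0.19) higher and Il21r (-2.20 ± 0.14), Il6ra (-0.88 ± 0.10) and Il7r (-0.75 ± 0.17) lower in B6. The filter acts on the receptors too, since a low gene can pass through 1 condition alone. In B6, Epor stood at 0.667 CPM unstimulated and 0.222 CPM with LPS, and Osmr at 0.0742 and 0.552 CPM. These counts describe the tested receptors only and are no result about the list. Il4ra was lower again with 5z7 (-0.89 ± 0.19), as 1 of 3 receptors in B6 and 1 of 2 in T169A, and none was higher.

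Of 13 other inhibitors of JAK-STAT signalling, 5 rose and 4 fell with LPS in each genotype, and 2 rose and 1 fell with 5z7; the LPS counts are near the shares over all tested genes. Usp18, which limits the type I interferon receptor, rose by 4.16 ± 0.22 in B6 and did not pass with 5z7 (-0.26 ± 0.19). The phosphatase gene Ptpn2 rose by 1.5 ± 0.09 with LPS and was lower with 5z7 (-0.36 ± 0.09), and Ptpn11 rose by 0.82 ± 0.12. Sh2b3 (-1.14 ± 0.09) and Ptpn6 (-0.58 ± 0.10) fell with LPS. Ptpn6 and Pias3, an inhibitor of STAT3, were higher with 5z7 (0.32 ± 0.10 and 0.56 ± 0.13). Of 23 genes listed as STAT targets, 17 rose and 3 fell in B6 and 18 and 3 in T169A with LPS, and 11 and 10 were lower with 5z7, 2 higher. Irf1 (4.21 ± 0.13 with LPS) did not pass with 5z7 (0.05 ± 0.11), whereas Il1rn (4.53 ± 0.17) fell with 5z7 by 1.71 ± 0.15.

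**Figure D4:**
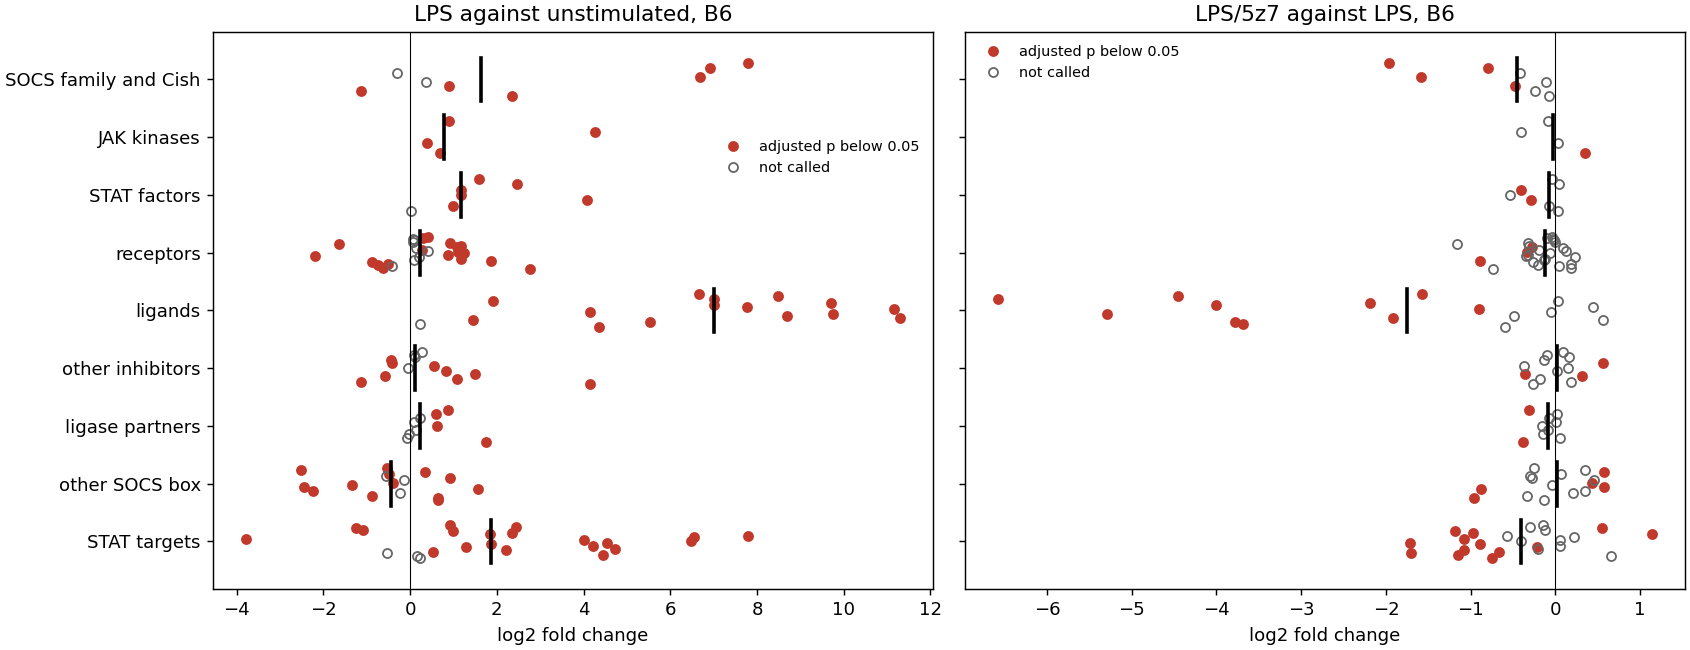
Log2 fold change (edgeR) in B6 of each tested gene of the SOCS family and of 8 pathway lists, with LPS against unstimulated on the left and LPS/5z7 against LPS on the right; filled points passed adjusted p 0.05, open points did not, and the bar is the list's median. The SOCS family has medians of 1.63 and -0.45. A ligand can pass the low-count filter through its level with LPS alone, so the place of the ligands is not a result in either panel. The filter also left out some receptors and some other SOCS box genes, so the places of those lists describe the tested genes only.

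The genes whose levels followed each member most closely are given by Pearson r of log2 CPM over the 18 libraries among 7801 genes. The points share 6 conditions, so for members with large treatment changes r mostly reflects the treatment pattern. For Socs4, which no treatment comparison called, r also follows single libraries. The unstimulated B6 library with its lowest level (29.8 CPM) was also the lowest for Itpr2 (22.2 against 44.4 and 46.9 CPM) and Lrba (9.2 against 22.6 and 24.7 CPM). Socs3 was nearest to Nfkbia and Tnf (0.998 each) and Stk40 (0.997). Cish was nearest to Pim1 (0.998), Pvr and Clcf1 (0.997 each). Socs1 had Ccl9, Il15ra and Daxx (0.996 each). Socs7 followed Eif4g2 and Zfp800 (0.999 each) and Gpd2 (0.998). Socs6 had Osbpl11 (0.991), Pdp1 (0.987) and Cd200r1 (0.986). Socs4 (Itpr2 at 0.978, Lrba and Ahcyl2 at 0.977) and Socs5 (Pprc1 at 0.974, Inppl1 at 0.971, Dot1l at 0.969) had somewhat lower values, and Socs2 the lowest (Rmc1 at 0.862, Dusp7 at 0.844, Smad3 at 0.843). Within the family, r was 0.99 between Socs1 and Socs3 and between Socs1 and Cish, 0.97 between Socs7 and Socs1, and -0.96 between Socs6 and Socs1.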

How the data were processed

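RNA from 18 mouse macrophage libraries was sequenced from directional libraries, per the protocols in the labels. The authors deposited raw read counts per gene; Trim Galore, STAR, featureCounts and the build GRCm39 are named in the submitters' processing notes. Versions, strand setting and treatment of multi-mapping reads are not given in the sources used here. Gene IDs were matched to GENCODE M21 symbols (52029 of 56953, 91.4%); no deposited coordinates were used. The columns are named by group and running number, so libraries were tied to groups only. Pairs of libraries within a group differed by 2.89 to 101 times counting variance, so none was a mere recount of another. This does not tell separate cultures from separate preparations of the same culture. The largest values were those of unstimulated B6 library 7, by the columns' running numbers. It stood at 81.3 against library 1 and 101 against library 4, beside 5.92 between libraries 1 and 4. Other groups also held a library that stood apart. These were library 8 (34.7 and 22.6, beside 5.86), library 9 (17.8 and 11.7, beside 5.17), library 11 (27.6 and 51.8, beside 7.55) and library 12 (20.7 and 20.3, beside 2.89). What sets these libraries apart was not tested.

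Counts were analysed with edgeR 4.0.16 (R 4.3.3): filterByExpr by group, TMM, 6 group means over all 18 libraries, robust quasi-likelihood F-tests on 13068 genes, Benjamini-Hochberg adjustment, 0.05. CPM are TMM-scaled. The fit was tested on simulated counts. Alternatives were DESeq2 1.42.0, other scalings and filters, fits on the compared groups alone, and leaving out each library. The members, lists and tests were chosen with earlier results of these data known. Members and each list's called genes with the smallest p (up to 3 per direction) and its most abundant uncalled gene could be named, and for each member the 3 genes of highest r; a few more were left unnamed for brevity. Nfkbia, Tnf, Pim1 and Il15ra are among the genes of highest r, and their unstimulated values were chosen after they were seen.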

Additional observations from a re-analysis of the deposited data

How the results depend on the processing

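Of 1152 member values recomputed under the alternatives, 1130 kept their side of the threshold and, where called, their direction, 15 were no longer past it, 5 came past it and 2 changed direction. The 2 were Socs5 with LPS/5z7 against unstimulated, scaled by library size alone: -0.01 in B6 and -0.04 in T169A, where that scaling put the median of all genes at -0.47 and -0.43. The number of members called in T169A against B6 unstimulated ranged from 0 to 1 over the fits that left out 1 library. The large LPS responses of Cish, Socs1, Socs3, Socs7 and Socs6 and the 5z7 losses of Cish, Socs3 and Socs1 passed the threshold in every alternative run. No paired analysis was possible because the columns carry a running number and no replicate letter, so the planned replicate block was not run. Levels of Socs1 and Cish in unstimulated cells and of Socs2 throughout rest on few counts, which limits the precision of their fold changes. With 3 libraries per group, genotype differences smaller than the intervals given were not detectable.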

Other observations

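The SOCS box, the part of these proteins that recruits a ubiquitin ligase, is shared with other families, and those genes were read with the same edgeR fit. Of 16 tested genes of other SOCS box proteins (27 listed), 5 rose and 8 fell with LPS in B6 and 4 and 9 in T169A, with list medians of -0.44 and -0.49 beside -0.07 and -0.03 for all genes, of which 29.6% rose and 33.5% fell in B6. The filter on low counts acts on this list too. Asb10, for one, stood at 1.75 CPM unstimulated and at 0.327 CPM with LPS in B6, so it can pass through its unstimulated level alone. These counts and medians describe the tested genes only and are no result about the list. Spsb1, an adaptor that targets inducible nitric oxide synthase, rose from 43.9 to 130 CPM in B6 (1.56 ± 0.11) and was lower with 5z7 at 70.6 CPM (-0.88 ± 0.10). Its relative Spsb2 fell from 43.5 to 9.27 CPM (-2.23 ± 0.18), and Rab40c from 38.9 to 7.19 CPM (-2.44 ± 0.16). Wsb1 rose from 138 to 217 CPM with LPS and stood at 112 CPM after LPS/5z7, the last step being -0.96 ± 0.09 (edgeR adjusted p 1.08e-06). The T169A values were 145, 210 and 111 CPM.

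Among the 9 ligase partners that act with the SOCS box, 4 rose and 0 fell with LPS in each genotype, and 2 were lower with 5z7; of all tested genes, 29.6% rose and 33.5% fell with LPS in B6 and 6.79% were lower with 5z7. Ube2f, the conjugating enzyme that attaches NEDD8 to cullin 5, rose from 70.5 to 235 CPM in B6 (1.74 ± 0.08) and stood at 180 CPM with LPS/5z7 (-0.38 ± 0.07). Arih2, a ligase that works with cullin 5, rose from 58.6 to 107 CPM (0.87 ± 0.08) and was lower with 5z7 at 86.3 CPM (-0.31 ± 0.08). Eloc, which encodes elongin C, rose from 43.9 to 66.7 CPM (0.61 ± 0.10), while Nedd8 was at 75.5 and 82.8 CPM and did not pass.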
